A study of Mus musculus with 15 samples.

Results

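The 6 long noncoding RNAs Malat1, Neat1, Gas5, Snhg1, Snhg12 and Kcnq1ot1 were followed across sorted mouse intestinal epithelial cells. They were chosen by name, with earlier results of these data known. Each was found as 1 of the 27179 rows of the count table through its Entrez gene number. The cells came from mice described as Lrig1-eGFP-IRES-CreERT2 x APCmin, so every group, normal cells included, shares the reporter allele and the Apc mutation. APCmin gives intestinal tumors. The reporter makes cells green where the gene Lrig1 is transcribed, whose protein marks a set of intestinal stem cells. Epcam-positive cells without CD45 and CD31 were sorted. The groups were Lrig1-high cells from colonic tumors (3 libraries), Lrig1-low cells from colonic tumors (4 libraries, 3 used), Lrig1-high cells from normal colonic epithelium (4 libraries) and Lrig1-low cells from normal colonic epithelium (4 libraries). The labels name no animal, age or pooling, so p-values measure only the spread between these libraries, which may be technical.

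The table holds raw read counts from a total RNA kit, so transcripts without a poly-A tail were not selected against. Of the 15 libraries, S15 (tumor, Lrig1-low) was left out, as it held 357 counts. The other 14 held 9508505 to 17296536 counts, of which mitochondrial ribosomal RNA took 12.9% to 42.8%. S12 (tumor, Lrig1-high) had the highest share and the lowest number of genes reaching 10 counts, 10323. In the 4 libraries S07, S08, S09 and S10 the level of Lrig1 itself went against the label within pairs of neighbouring numbers from the same tissue. S07 lay above S08, and S09 above S10. Against the other libraries the order was less clear: S08 lay above S03 and S11, and S12 lay below S07. Lrig1 was at 148, 55.7 (S08) and 72.5 CPM (counts per 1000000, with TMM scaling) in tumor Lrig1-high libraries, against 53.2, 142 (S07) and 43.0 CPM in tumor Lrig1-low libraries. It was at 126, 138, 36.4 (S10) and 146 CPM in normal Lrig1-high libraries, against 51.4, 45.3, 85.5 (S09) and 54.0 CPM in normal Lrig1-low libraries. Every direction below follows the labels as deposited. The tissue is called colonic by the labels only. In the libraries 12 markers of small intestine had medians of 99.9 to 619 CPM and sums of 2730 to 10900 CPM. The 9 of colon had medians of 0 to 1.55 CPM and sums of 4.76 to 138 CPM, with 2 to 5 of the 9 at 0.

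Malat1 and Neat1 are nuclear RNAs made from neighbouring genes. Malat1 gathers in nuclear speckles, where splicing factors are stored, and the long isoform of Neat1 builds paraspeckles. Malat1 and that long isoform end in a triple helix formed with an A-rich tract instead of a poly-A tail, after RNase P cuts off a tRNA-like piece. Gas5, Snhg1 and Snhg12 are host genes: their introns release small nucleolar RNAs (snoRNAs), which guide the chemical modification of ribosomal RNA, and their spliced remainder is degraded through nonsense-mediated decay. They belong to the 5′ TOP genes, which start transcription at a C within a run of pyrimidines. Kcnq1ot1 is transcribed antisense to Kcnq1 from the paternal chromosome, where it silences neighbouring imprinted genes, Cdkn1c among them.

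The 3′ ends are shown because they set Malat1 and the long Neat1 isoform apart from polyadenylated RNA. Capitals mark the A-rich tract in the first 2 sequences and the poly-A signal AATAAA in the third. Sequences are from GENCODE M21 on GRCm38, read 5′ to 3′ on the minus strand of chromosome 19, at chr19:5795982-5796041, chr19:5824708-5824767 and chr19:5842307-5842366.
Malat1: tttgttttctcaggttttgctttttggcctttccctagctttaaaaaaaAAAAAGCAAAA
Neat1 long isoform: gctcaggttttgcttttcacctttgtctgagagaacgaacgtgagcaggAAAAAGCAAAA
Neat1 short isoform: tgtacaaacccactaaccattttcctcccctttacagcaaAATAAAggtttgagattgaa
The annotated Malat1 transcript runs on for 292 bases after its tract. Of 30171 annotated ends of long noncoding transcripts, 5 held the capital letters of the tract in their last 60 bases (0.0166%), and 24.0% held AATAAA there.

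The starts of the host genes are shown because a TOP start lies within a run of pyrimidines. Each line gives 40 bases before and 40 from the first base of the RefSeq gene model counted here (GRCm38.p6), with the run of C and T over the first base in capitals. They lie at chr1:161035126-161035205, chr19:8723447-8723526 and chr4:132308638-132308717, all on the plus strand.
Gas5: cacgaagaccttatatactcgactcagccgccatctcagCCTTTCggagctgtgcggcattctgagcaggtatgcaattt
Snhg1: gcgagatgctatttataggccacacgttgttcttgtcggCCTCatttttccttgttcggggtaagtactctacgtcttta
Snhg12: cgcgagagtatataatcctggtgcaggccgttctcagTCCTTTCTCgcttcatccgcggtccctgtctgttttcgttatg
The runs were 6, 4 and 9 bases long in Gas5, Snhg1 and Snhg12, each with bases before the annotated first base included. From that base on, Snhg1 reads CTC and then an A. The annotated first base is a C in Gas5 and Snhg1 and a T in Snhg12, and RefSeq also holds an upstream start of Gas5 with a run of 0 bases. Of 32851 annotated starts, 7.25% had a run over the first base at least as long as that of Gas5, 13.97% one as long as that of Snhg1, and 3.03% one as long as that of Snhg12.

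For Kcnq1ot1 the 150 bases before and the 50 from the annotated start are shown, since this promoter lies in the imprint control region of the domain. Capitals mark CCAAT, the box bound by NF-Y, searched on both strands as CCAAT and ATTGG. The window is chr7:143296498-143296697 on the minus strand (RefSeq, GRCm38.p6).
Kcnq1ot1: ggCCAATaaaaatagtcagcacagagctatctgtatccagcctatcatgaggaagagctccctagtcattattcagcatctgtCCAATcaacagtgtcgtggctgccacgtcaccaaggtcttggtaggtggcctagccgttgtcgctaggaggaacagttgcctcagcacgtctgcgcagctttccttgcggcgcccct
The 300-base window of RefSeq around this start held 3 such boxes, and 3.21% of the 32851 windows held at least as many. These matches describe letters and are no evidence of binding.

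What a count means differs between the 6 rows. Malat1 (gene 72289) was counted over its whole span, chr19:5795690-5802671, 6982 bases in 1 block. Neat1 (gene 66961) was counted only over chr19:5842302-5845478, the first 3177 bases that both isoforms share and 15.29% of the annotated span, so its value cannot separate the long, paraspeckle-forming isoform from the short one. Gas5 (gene 14455, chr1:161035166-161038537) was counted over 4 blocks, the first of which is 2382 bases long, spans introns and holds 6 of the 9 loci that GENCODE annotates as snoRNAs within the gene, 1 of the 6 under the microRNA name Mir5117. Its count therefore joins spliced RNA with intron and snoRNA reads. Another of the 6 is Snord78, at chr1:161036984-161037049, shown with its C box TGATG and D box CTGA in capitals.
Snord78: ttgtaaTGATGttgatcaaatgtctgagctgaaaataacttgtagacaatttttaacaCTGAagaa
Of 1507 annotated snoRNA transcripts, 33.0% held both boxes in these letters. Snhg1 (gene 83673, chr19:8723487-8726326) was counted over 10 exons of 476 bases in all, and Snhg12 (gene 100039864, chr4:132308678-132311024) over 5 exons of 606 bases, with none of their 8 and 4 annotated snoRNA loci inside. Kcnq1ot1 (gene 63830) was counted as 1 block of 83437 bases, chr7:143213111-143296547 on the minus strand, inside the Kcnq1 gene on the plus strand. Counting used strand, per the file headers. All 6 passed the filter on low counts.

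Levels between genes can be compared only per length. The median over the 14 libraries was 845.5 RPKM (CPM per kilobase of counted length) for Malat1, 80.2 for Neat1, 56.3 for Gas5, 34.5 for Snhg1, 12.1 for Snhg12 and 0.0154 for Kcnq1ot1. Malat1 lay above the others in every library, at 456.1 to 2088 RPKM against at most 207.1 RPKM for any other. The ranges of Neat1 (25.8 to 141.9), Gas5 (19.5 to 207.1) and Snhg1 (20.3 to 72.2 RPKM) overlapped, and that of Snhg12 (6.94 to 27.5 RPKM) overlapped theirs at its upper end. Kcnq1ot1, at 0.00373 to 0.120 RPKM, lay far below all of them. Malat1 took 0.374% to 1.40% of all counts of a library and had rank 6 by median CPM among all rows.

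**Figure D1:**
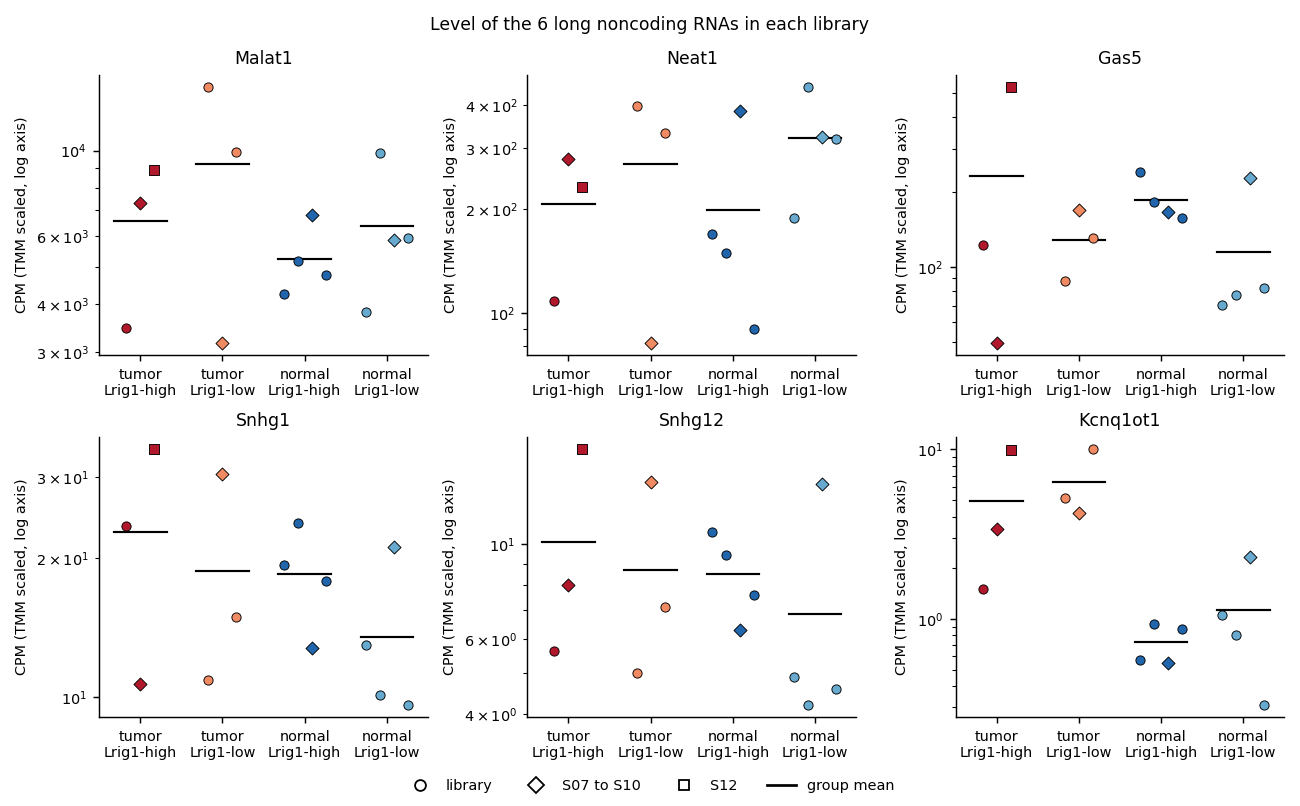
CPM (log axis) of the 6 long noncoding RNAs, 1 panel each, in the 4 groups. Points are libraries, squares the library S12, and bars group means. Diamonds are the 4 libraries whose Lrig1 level went against the label within pairs of neighbouring numbers. Kcnq1ot1 is at 1.51 to 9.998 CPM in the 6 tumor libraries and at 0.311 to 2.31 CPM in the 8 normal ones, with S04 below S09. Within each fraction the tumor and normal libraries of Kcnq1ot1 do not overlap, while those of the other 5 RNAs do.

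Kcnq1ot1 was the 1 member called between tumor and normal cells in the main edgeR fit, and only for the mean of both fractions. It was at 1.51, 3.38 and 9.95 CPM in the tumor Lrig1-high libraries S04, S08 and S12, against 0.568, 0.927, 0.546 and 0.869 CPM in the normal Lrig1-high libraries. In Lrig1-low cells it was at 5.14, 4.20 and 9.998 CPM in the tumor libraries S03, S07 and S11, against 1.06, 0.805, 2.31 and 0.311 CPM in the normal libraries S01, S05, S09 and S13. Within each fraction every tumor library lay above every normal one. Across fractions, the tumor library S04 lay below the normal library S09. Behind these levels are 19 to 135 reads in a tumor library and 4 to 35 in a normal one, and each end of a read pair was counted as a read.

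In edgeR's quasi-likelihood test the log2 fold change of Kcnq1ot1, tumor over normal as the mean of both fractions, was 2.63 ± 0.55 (SE, n = 6 and 8, adjusted p = 0.0315), with a 95% interval of 1.45 to 3.81. So 1 of the 6 members was called in this comparison, where 2.22% of the 13883 genes tested were called (1.82% higher in tumor cells). Those were 253 genes higher and 55 lower, against 254 and 18 with library totals in place of TMM factors, 541 and 519 without S04 and 31 and 3 without S11. Within a fraction it was 2.75 ± 0.78 in Lrig1-high cells (SE, n = 3 and 4, edgeR adjusted p = 0.355) and 2.51 ± 0.77 in Lrig1-low cells (SE, n = 3 and 4, edgeR adjusted p = 0.143). No member was called in either, where 0% and 0.331% of genes were called. In Lrig1-low cells these were 43 genes higher and 3 lower, against 0 and 0 without S01, 3 and 0 without S11 or without S13, and 226 and 59 without S12. In Lrig1-high cells 1559 genes, 11.2%, had an unadjusted p under 0.05, DESeq2 called 114 genes, and edgeR without S04 called 263 higher and 544 lower, Kcnq1ot1 among the higher ones (adjusted p = 0.0361). Kcnq1ot1 was the 1 member of 6 whose groups did not overlap, in Lrig1-high cells against 8.39% of all genes (3.37% higher in tumor cells) and in Lrig1-low cells against 18.3% (9.95% higher in tumor cells). The tumor effect in Lrig1-high cells minus that in Lrig1-low cells was 0.24 ± 1.06 (SE, 95% interval -2.03 to 2.52, edgeR adjusted p = 0.952), too wide to show whether the fractions differ. In that interaction no gene was called by edgeR (0%), 999 genes (7.2%) had an unadjusted p under 0.05, and DESeq2 called 5 (0.0366%).

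The call of Kcnq1ot1 sits close to the threshold. It was kept under 8 of 9 other settings, with log2 fold changes of 2.30 to 3.10, and lost with a block for each run of neighbouring library numbers (2.31, edgeR adjusted p = 0.093). It was kept in 7 of the 14 fits that leave out 1 library and lost without S01, S02, S05, S06, S11, S13 or S14, with log2 fold changes of 2.07 to 2.91 over the 14 fits and the highest adjusted p, 0.104, without S11. Without S12 it was 2.07 (adjusted p = 0.0468), and without S07, S08, S09 and S10 it was 3.10 (adjusted p = 0.0249), both in edgeR. For the mean of both fractions DESeq2 and limma-voom called 7.75% and 3.95% of genes, Kcnq1ot1 among them (adjusted p = 7.4e-05 and 0.015). DESeq2 called it also within Lrig1-high cells (2.80, adjusted p = 0.0365, 0.834% of genes called) and within Lrig1-low cells (2.53, adjusted p = 0.0211, 5.16% of genes called). limma-voom with sample weights called it within Lrig1-low cells (3.03, adjusted p = 0.00236, 10% of genes called), and not within Lrig1-high cells (1.57, adjusted p = 0.939). The value in Lrig1-high cells was 1.70 without S12 (edgeR adjusted p = 0.649).

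Markers of other cell types were summed beside it. Of 9 endothelial markers 4 to 6 were at 0 in each tumor library and 2 to 7 in each normal one. Their sum was 6.50 to 33.7 CPM in tumor Lrig1-high, 17.5 to 192 CPM in tumor Lrig1-low, 2.17 to 40.7 CPM in normal Lrig1-high and 2.26 to 6.27 CPM in normal Lrig1-low libraries. The highest, 192 CPM, was in S11, which also had the highest Kcnq1ot1. Cdh5 gave 155 CPM of that sum, Vwf 21.4 CPM and Tek 14.6 CPM, while Pecam1 was at 1.11 CPM, Kdr at 0.222 CPM, and Tie1, Emcn, Eng and Cldn5 were at 0. Fibroblast and muscle markers summed to 0.912 to 36.8 CPM and 2.30 to 34 CPM in the tumor groups (Lrig1-high and Lrig1-low), against 1.99 to 10.8 CPM and 2.95 to 4.24 CPM in the normal groups, with 3 to 8 of 10 at 0. Leukocyte markers summed to 14.8 to 57.2 CPM and 18.4 to 28.6 CPM in the tumor groups, against 12.7 to 21.8 CPM and 6.54 to 33.6 CPM in the normal groups, with 4 to 9 of 12 at 0. The part of these cells in the Kcnq1ot1 result was not tested. In sorted bulk samples, fewer cells of a type and less RNA per cell cannot be told apart.

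Of the 13 tested genes in and around the imprinted domain of Kcnq1ot1, edgeR called 1 higher and none lower in tumor than in normal cells (mean of both fractions). Of all genes tested it called 2.22%, with 1.82% higher in tumor cells. The 13 had 8 positive log2 fold changes and a median of 0.09 against -0.02 over all genes. The called gene was Cdkn1c, an inhibitor of cyclin-dependent kinases expressed from the maternal chromosome, at 2.11 ± 0.49 (SE, n = 6 and 8, edgeR adjusted p = 0.0431). Cdkn1c was at 8.56, 26.1 and 45.4 CPM in tumor Lrig1-high libraries, against 4.23, 5.89, 9.94 and 4.27 CPM in normal Lrig1-high libraries. Among Lrig1-low cells, Cdkn1c was at 21.7, 6.09 and 68.7 CPM in tumor libraries, against 7.17, 11, 4.75 and 7.23 CPM in normal libraries. The groups overlapped in both fractions, and 11 of the 14 fits that leave out 1 library lost the call, with edgeR adjusted p of 0.0173 to 0.156 and log2 fold changes of 1.5 to 2.35 over the 14 fits. S11 and S12 were highest for Cdkn1c as they were for Kcnq1ot1. Without S11 the Cdkn1c value was 1.5 (adjusted p = 0.156) and without S12 it was 1.75 (adjusted p = 0.0779), both in edgeR. limma-voom did not call Cdkn1c (1.54, adjusted p = 0.0806), nor did edgeR with the block for runs of library numbers (1.76, adjusted p = 0.141).

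Kcnq1, the potassium channel gene on the opposite strand, was not called by edgeR in any comparison. It was at 161, 53.6 and 175 CPM in tumor Lrig1-high libraries, against 202, 176, 78.6 and 176 CPM in normal Lrig1-high libraries. Among Lrig1-low cells, Kcnq1 was at 75.3, 138 and 73.7 CPM in tumor libraries, against 78.4, 58.7, 212 and 76.3 CPM in normal libraries. The log2 fold changes, tumor over normal, were -0.28 ± 0.50 in Lrig1-high cells (SE, edgeR adjusted p = 0.823) and -0.15 ± 0.50 in Lrig1-low cells (SE, edgeR adjusted p = 0.98), with all groups overlapping. S08 and S10, each with less Lrig1 than the library numbered just before it, had the low Kcnq1 values of the Lrig1-high groups. S07 and S09 had the high ones of the Lrig1-low groups. The other domain genes with the highest levels, Cd81 and Nap1l4, had log2 fold changes of 0.13 and -0.04 in Lrig1-high cells and 0.44 and 0.21 in Lrig1-low cells, none called.

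**Figure D2:**
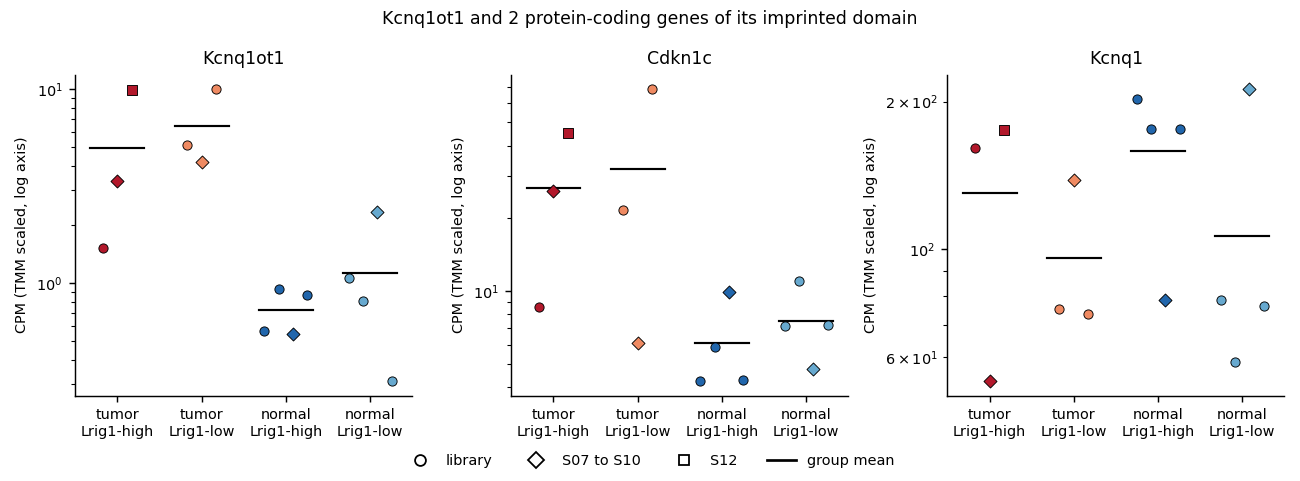
CPM (log axis) of Kcnq1ot1, the imprinted gene Cdkn1c and the sense gene Kcnq1 in each library of the 4 groups; diamonds are S07 to S10, squares S12, and bars group means. Kcnq1ot1 and Cdkn1c have their highest values in tumor libraries, 9.998 and 68.7 CPM, both in S11, while Kcnq1 has its highest, 212 CPM, in the normal Lrig1-low library S09.

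Malat1, the most abundant member, was not called by edgeR in any comparison. It was at 3466, 7336 and 8901 CPM in tumor Lrig1-high libraries, against 4250, 5179, 6820 and 4754 CPM in normal Lrig1-high libraries. Among Lrig1-low cells, Malat1 was at 14580, 3184 and 9927 CPM in tumor libraries, against 3816, 9877, 5853 and 5953 CPM in normal libraries. All groups overlapped, and the lowest and the highest library, S07 and S03, were both tumor Lrig1-low. The log2 fold change, tumor over normal as the mean of both fractions, was 0.43 ± 0.36 (SE, edgeR adjusted p = 0.6, 95% interval -0.35 to 1.21). Between the fractions it was -0.49 ± 0.55 in tumors and -0.28 ± 0.48 in normal epithelium (Lrig1-high over Lrig1-low, SE, edgeR adjusted p = 0.832 and 1).

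Neat1 was not called by edgeR in any comparison. It was at 108.3, 278.8 and 231.2 CPM in tumor Lrig1-high libraries, against 168.7, 149.5, 385.1 and 90.0 CPM in normal Lrig1-high libraries. In Lrig1-low cells it was at 397.4, 82.0 and 331.3 CPM in tumor libraries, against 188.0, 450.8, 323.3 and 319.6 CPM in normal libraries. Tumor over normal was -0.10 ± 0.39 as the mean of both fractions (SE, edgeR adjusted p = 0.93, 95% interval -0.94 to 0.75).

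Between fractions of normal epithelium, 3 of the 4 Lrig1-high libraries had less Neat1 than any Lrig1-low library, 90.0 to 168.7 CPM against 188.0 to 450.8 CPM. The fourth, S10, had 385.1 CPM, and S10 is the library labelled Lrig1-high with the lowest Lrig1 of the 8. The fractions of normal epithelium differed by -0.69 ± 0.51 (log2, Lrig1-high over Lrig1-low, SE, n = 4 each, edgeR adjusted p = 1), those of tumors by -0.39 ± 0.59 (SE, n = 3 each, edgeR adjusted p = 0.885). Without S07, S08, S09 and S10 the value in normal epithelium was -1.21 ± 0.40 (edgeR adjusted p = 0.113).

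The ratio of Neat1 to Malat1 within a library does not depend on how libraries are scaled. Neat1 had 2.73%, 2.58% and 3.34% as many reads as Malat1 in tumor Lrig1-low libraries, against 4.93%, 4.57%, 5.52% and 5.37% in normal Lrig1-low libraries. These groups did not overlap. In the same comparison the levels of 18.3% of all genes had groups without overlap, and the share over ratios of other genes was not counted. The mean log2 ratio was -5.13 ± 0.20 in tumor and -4.30 ± 0.12 in normal Lrig1-low cells (SD), a difference of -0.83. In a two-sided exact permutation test p was 0.0571, and a design of 3 and 4 libraries gives no lower p. Adjusted over the 8 ratio comparisons it was 0.456. In Lrig1-high cells Neat1 had 3.12%, 3.80% and 2.60% as many reads in tumor libraries, against 3.97%, 2.89%, 5.65% and 1.89% in normal libraries. Those groups overlapped, with a difference of -0.09 in the log2 ratio (exact permutation p = 0.857, 0.979 adjusted over the 8).

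Between fractions, the log2 ratio of Neat1 to Malat1 was -4.91 ± 0.67 in normal Lrig1-high and -4.30 ± 0.12 in normal Lrig1-low cells, a difference of -0.61 (SD, n = 4 each, exact permutation p = 0.143, adjusted 0.456, smallest possible 0.0286). In tumors it was -5.00 ± 0.28 in Lrig1-high and -5.13 ± 0.20 in Lrig1-low cells, a difference of 0.13 (SD, n = 3 each, exact permutation p = 0.6, adjusted 0.96, smallest possible 0.1). The 4 normal Lrig1-low libraries were close together in this ratio, and the 4 normal Lrig1-high libraries were spread over a wider range on both sides of the tumor values.

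**Figure D3:**
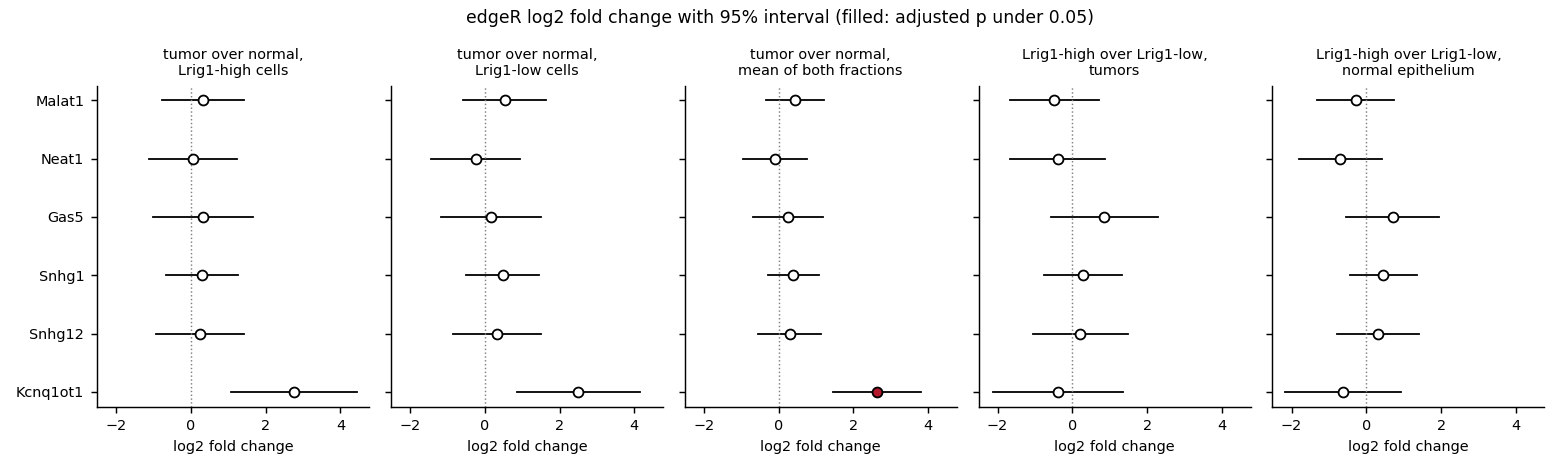
edgeR log2 fold changes of the 6 long noncoding RNAs (points) with 95% intervals (lines) in 5 comparisons, filled where the adjusted p was under 0.05. Kcnq1ot1, tumor over normal as the mean of both fractions (2.63), is the filled point, and the intervals of the other 5 RNAs include 0 in all 5 comparisons.

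The 3 snoRNA host genes had no call between tumor and normal cells. Gas5 was at 122.2, 49.7 and 528.9 CPM in tumor Lrig1-high libraries, against 240.2, 182.2, 166.2 and 157.1 CPM in normal Lrig1-high libraries. The highest and the lowest of all 14 libraries, S12 and S08, were both tumor Lrig1-high. In Lrig1-low cells Gas5 was at 87.6, 169.0 and 130.7 CPM in tumor libraries, against 70.6, 77.2, 228.0 and 82.3 CPM in normal libraries. The log2 fold change, tumor over normal, was 0.33 ± 0.62 in Lrig1-high cells (edgeR adjusted p = 0.836) and 0.17 ± 0.62 in Lrig1-low cells (SE, edgeR adjusted p = 0.98). The value in Lrig1-high cells rested on S12, the library with 42.8% mitochondrial ribosomal RNA, and was -1.14 without it (edgeR adjusted p = 0.649).

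Snhg1 was at 23.5, 10.7 and 34.4 CPM in tumor Lrig1-high libraries, against 19.4, 23.8, 12.8 and 17.9 CPM in normal Lrig1-high libraries. Among Lrig1-low cells, Snhg1 was at 10.9, 30.4 and 15 CPM in tumor libraries, against 13, 10.1, 21.2 and 9.64 CPM in normal libraries. Snhg12 was at 5.63, 8.03 and 16.6 CPM in tumor Lrig1-high libraries, against 10.7, 9.40, 6.30 and 7.60 CPM in normal Lrig1-high libraries. Among Lrig1-low cells, Snhg12 was at 5, 14 and 7.11 CPM in tumor libraries, against 4.89, 4.21, 13.8 and 4.59 CPM in normal libraries. In both genes S12 was highest of all 14 with TMM scaling, and S07, labelled Lrig1-low, was next. Scaled by library totals instead, S07 was highest in both. It then had 37 CPM of Snhg1 and 17 CPM of Snhg12, against 24.0 and 11.6 CPM in S12. Tumor over normal as the mean of both fractions was 0.25 ± 0.44 for Gas5, 0.39 ± 0.32 for Snhg1 and 0.29 ± 0.39 for Snhg12 (SE, edgeR adjusted p = 0.824, 0.579 and 0.751). Their 95% intervals reached from -0.69 to 1.19, from -0.29 to 1.08 and from -0.54 to 1.12.

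Between Lrig1-high and Lrig1-low cells of normal epithelium the 3 host genes had positive differences that edgeR did not call. Gas5 was at 157.1 to 240.2 CPM in the 4 Lrig1-high libraries, against 70.6 to 82.3 CPM in 3 of the 4 Lrig1-low libraries. The fourth, S09, had 228.0 CPM, and S09 had the highest Lrig1 of the libraries labelled normal Lrig1-low. The log2 fold change was 0.70 ± 0.58 for Gas5, 0.45 ± 0.42 for Snhg1 and 0.30 ± 0.51 for Snhg12 (SE, n = 4 each, edgeR adjusted p = 1 for each). No member was called here, and neither was any of the 13883 genes in edgeR (0%), with 499 genes (3.59%) at an unadjusted p under 0.05 and 1 gene (0.00731%) called by DESeq2. None of the 6 members had groups without overlap, against 2.84% of all genes.

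Another model made calls here. limma-voom, run with sample weights that are lower for libraries that stand apart, gave S09 and S10 weights of 0.691 and 0.348 against 1.84 to 3.33 for the other normal libraries. It called 4 members, Gas5 (1.18, adjusted p = 0.00606), Snhg1 (0.79, adjusted p = 0.0247) and Snhg12 (0.84, adjusted p = 0.0371) higher and Neat1 (-1.08, adjusted p = 0.0245) lower in normal Lrig1-high cells. It called 4169 of all genes, 30%, in the same comparison. The model and the weights changed together in this fit, and their parts were not tested. Without S07, S08, S09 and S10 edgeR gave 1.35 ± 0.44, 0.92 ± 0.28 and 1.03 ± 0.47 for Gas5, Snhg1 and Snhg12 (SE, adjusted p = 0.114, 0.0986 and 0.237), uncalled in a fit where 474 genes were called higher and 322 lower. Those 4 libraries were picked by their Lrig1 level, so that fit is no independent evidence.

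In tumors, Lrig1-high over Lrig1-low was 0.85 ± 0.67 for Gas5, 0.28 ± 0.48 for Snhg1, 0.21 ± 0.59 for Snhg12 and -0.39 ± 0.81 for Kcnq1ot1 (SE, n = 3 each, edgeR adjusted p = 0.764, 0.901, 0.942 and 0.919). No member was called and no member had groups without overlap, where edgeR called 0% of genes, 1042 genes (7.51%) had an unadjusted p under 0.05, DESeq2 called 22 genes (0.164%), and 7.46% had groups without overlap. edgeR called 41 genes higher and 324 lower there without S04, and 45 and 3 without S07, S08, S09 and S10. The 3 host gene values rested on S12 and were -0.55, -0.11 and -0.33 without it. With S12 kept and S07, S08, S09 and S10 left out, a set picked by Lrig1 level, they were 1.63 ± 0.545, 1.22 ± 0.35 and 0.93 ± 0.57. None of these was called (SE, edgeR adjusted p = 0.184, 0.146 and 0.388). In normal epithelium Kcnq1ot1 differed by -0.63 ± 0.72 between the fractions (log2, Lrig1-high over Lrig1-low, SE, edgeR adjusted p = 1), which was 0.03 without S09.

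The ratio of Snhg1 to Gas5 compared 2 host genes within a library. Snhg1 had 19.2%, 21.5% and 6.50% as many reads as Gas5 in tumor Lrig1-high libraries, against 8.06%, 13.1%, 7.70% and 11.4% in normal Lrig1-high libraries. It had 12.5%, 18% and 11.4% as many in tumor Lrig1-low libraries, against 18.4%, 13.1%, 9.30% and 11.7% in normal Lrig1-low libraries. All groups overlapped. Over the 4 comparisons the difference of the mean log2 ratio was -0.38 to 0.50, with exact two-sided permutation p of 0.171 to 1 and adjusted p of 0.456 to 1.

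The snoRNAs that have a row of their own were few. Of 10 names listed for Gas5, 1 was in the table, Snord47. It averaged 11 ± 9.97 and 9.57 ± 4.63 CPM in tumor Lrig1-high and Lrig1-low libraries, against 13 ± 4.16 and 6.54 ± 5.15 CPM in the normal ones (SD). Of 8 names listed for Snhg1, Snord22 was in the table, at 6.74 to 54.1 CPM and 7.25 to 18.9 CPM in tumor Lrig1-high and Lrig1-low libraries, against 9.12 to 31.3 CPM and 3.11 to 17.1 CPM in the normal ones. All 4 listed for Snhg12 (Snora16a, Snora44, Snora61 and Snord99) were in the table. Their log2 fold changes in normal epithelium, Lrig1-high over Lrig1-low, were 1.07, 0.23, 0.74 and 1.03, and no snoRNA was called by edgeR in any comparison. In S12 Snord47, Snord22, Snora44, Snord99 and Snora16a were at their highest of the 14 libraries by TMM-scaled CPM. Snora44 was at 19.8 CPM there against at most 2.30 CPM elsewhere. The TMM factor of S12, 0.699, was the lowest of the 14, which raises its values beside those scaled by library totals.

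The members varied together in 2 sets across the 14 libraries. Log2 CPM of Malat1 and Neat1 had a Pearson r of 0.80 and a Spearman rho of 0.84 (permutation p = 0.00065 and 0.00035, adjusted over the 15 pairs 0.00296 and 0.00525). Gas5 and Snhg1 had an r of 0.81 and a rho of 0.78 (permutation p = 0.00036 and 0.00161, adjusted 0.00296 and 0.00604). Gas5 and Snhg12 had an r of 0.78 and a rho of 0.79 (permutation p = 0.00079 and 0.00134, adjusted 0.00296 and 0.00604). Snhg1 and Snhg12 had an r of 0.82 and a rho of 0.79 (permutation p = 0.00062 and 0.00142, adjusted 0.00296 and 0.00604). The points of a pair share their library, so depth, scaling and cell composition are common to both genes.

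These 4 relations held without the 2 libraries farthest from the median of the gene named first, with an r of 0.75 for Malat1 and Neat1, 0.72 for Gas5 and Snhg1, 0.88 for Gas5 and Snhg12 and 0.67 for Snhg1 and Snhg12. They were also present within groups: deviations from the group means gave an r of 0.88, 0.82, 0.77 and 0.78 in the same order. Across the sets, Neat1 and Snhg1 were negatively related, with an r and a rho of -0.65 (permutation p = 0.0131 and 0.0134, adjusted 0.0394 and 0.0401), -0.62 without the 2 farthest libraries and -0.59 for deviations from group means. That relation lost its call with library totals in place of TMM factors (-0.59, permutation p adjusted 0.0839) and without S07, S08, S09 and S10 (-0.61, permutation p adjusted 0.167). The other 10 pairs were not called, and Kcnq1ot1 was related to none of the other 5, with an r of 0.05 to 0.44 (permutation p adjusted 0.247 to 0.876). For deviations from the group means its r was higher with Snhg12 (0.62) and Gas5 (0.57), and 0.17 to 0.41 with Neat1, Malat1 and Snhg1, with no test of these.

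**Figure D4:**
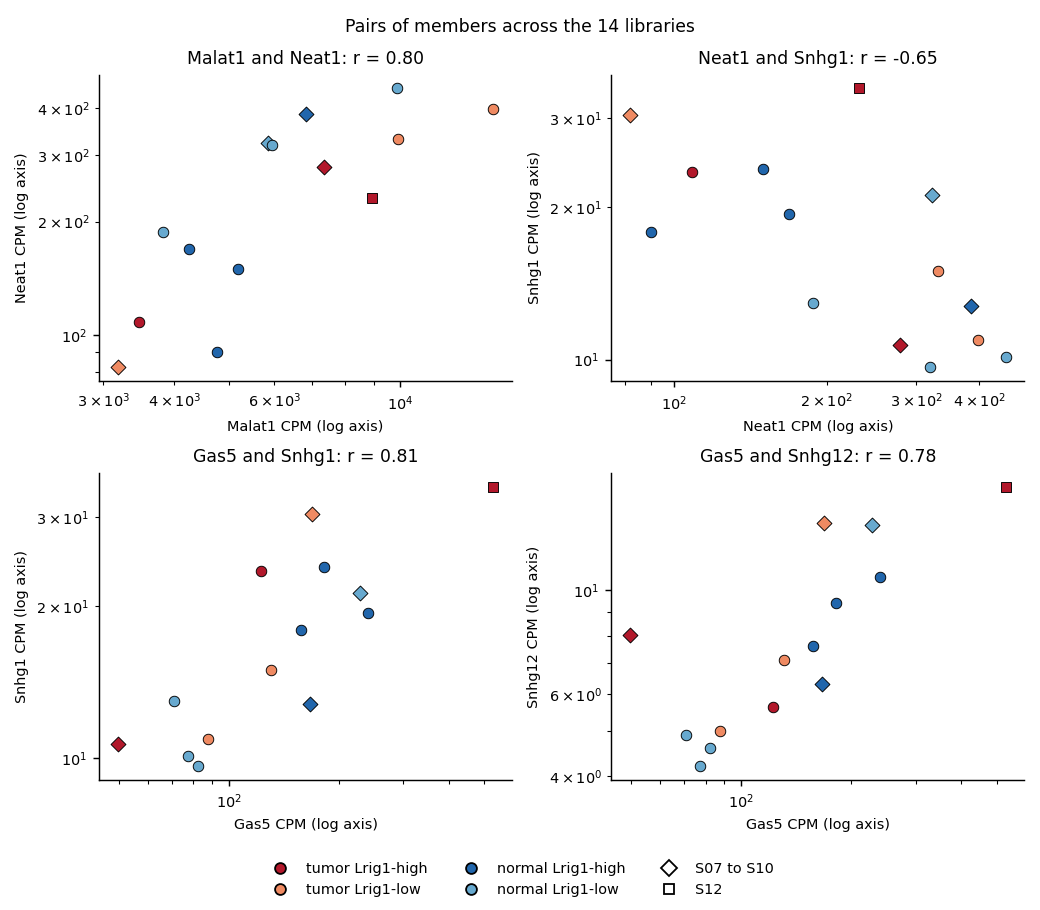
CPM (log axes) of 4 pairs of members across the 14 libraries, coloured by group; diamonds are S07 to S10 and squares S12. Malat1 and Neat1 (r = 0.80), Gas5 and Snhg1 (0.81) and Gas5 and Snhg12 (0.78) lie along rising lines, and Neat1 and Snhg1 (-0.65) along a falling one.

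The genes most like each member in pattern were found by Pearson r of log2 CPM over the 14 libraries among 8578 named genes with a mean of at least 10 CPM. They were Ccnl2 (0.87), Glo1, Tnk1 and Smad7 (0.81) for Malat1, and Kif21b (0.90), Nipa2, Tcf25, Dock6 and Sh3d21 (0.88) for Neat1. For the host genes they were Nfx1 (0.95), Atf7, Pcbp2, Slc19a1 and Nr4a2 (0.93) for Gas5, and Wwp1 (0.96), Mrtfb, Dtx4, Pabpc1 and Cd81 (0.93) for Snhg1. They were Tuba1c (0.93), Zfas1, Cln6, Snrpe and Lyrm9 (0.85) for Snhg12, and Tmem123 (0.92), Lmo4, Zyx, Shf and Sh3bgrl2 (0.89) for Kcnq1ot1. These r are the highest of 8578 and describe 14 libraries only.

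Genes of the pathways around the members were counted beside them. The lists here and below were counted in the main edgeR fit only. That fit called 2.22% of all genes for tumor over normal as the mean of both fractions. It called 0.331% for tumor over normal in Lrig1-low cells and 0% in every other comparison. Of 17 tested other snoRNA host genes none was called. Their median log2 fold change was -0.04 for tumor over normal as the mean of both fractions, against -0.02 over all genes. For Lrig1-high over Lrig1-low in normal epithelium it was 0.11, against 0.01 over all genes, with 11 of the 17 positive. The 3 with the highest level, Snhg5, Zfas1 and Snhg17, had 0.50 ± 0.37, 0.61 ± 0.43 and 0.62 ± 0.41 for tumor over normal (SE, mean of both fractions). Of 13 snoRNP factors, the proteins that bind and mature snoRNAs, none was called. Lrig1-high over Lrig1-low in normal epithelium was positive for 13 of the 13, with a median of 0.50, among them Nop58 (0.50 ± 0.29) and Nop56 (0.73 ± 0.34), core proteins of box C/D particles, and Dkc1 (0.59 ± 0.35), the pseudouridine synthase of box H/ACA particles. Tumor over normal was positive for 13 of 13 in Lrig1-low cells (median 0.48) and for 3 of 13 in Lrig1-high cells (median -0.40). Both counts of 13 of 13 are measured against the same normal Lrig1-low libraries, so they are not separate results.

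Of 20 other genes listed as 5′ TOP genes, whose own starts are not shown here, none was called. In normal epithelium 19 of the 20 were positive for Lrig1-high over Lrig1-low, with a median of 0.21, among them the translation factors Eef2 (0.07 ± 0.27) and Eef1a1 (0.19 ± 0.29) and the poly-A binding protein Pabpc1 (0.41 ± 0.30, SE). The median over all genes tested there was 0.01, and the share of all genes with a positive value was not counted. Of 16 nonsense-mediated decay factors none was called. Medians were -0.12 for tumor over normal (mean of both fractions) and 0.13 for Lrig1-high over Lrig1-low in normal epithelium. In the second comparison 14 of the 16 were positive. Smg1, a kinase of that pathway, and the helicase Upf1 had -0.28 ± 0.21 and 0.07 ± 0.31 in the second.

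Proteins that work with Malat1 and Neat1 were not called either. Of 20 paraspeckle proteins the median was -0.04 for tumor over normal (mean of both fractions) and 0.14 for Lrig1-high over Lrig1-low in normal epithelium, where 19 of 20 were positive. Sfpq, a core paraspeckle protein, had -0.05 ± 0.15 and 0.18 ± 0.20, and Hnrnpk -0.01 ± 0.13 and 0.10 ± 0.17 in the same order (SE). Of 21 nuclear speckle proteins the medians were -0.02 and 0.20, with 16 of 21 positive in the second. Of 14 genes of 3′ end processing and small RNA maturation the medians were -0.07 and 0.36, with 14 of 14 positive in the second. Of 13 neighbours of Malat1 and Neat1 on chromosome 19 they were -0.32 and -0.08, with 4 of 13 positive in the second. Of 18 other nuclear or regulatory long noncoding RNAs they were 0.21 and 0.20, and of 11 small RNAs without a poly-A tail 0.21 and 0.09. In the second comparison 10 of the 18 and 9 of the 11 were positive. None of the genes in these 6 lists was called by edgeR in any comparison, and calls of other models were not counted for them. Over all genes the medians were -0.02 and 0.01. All lists were measured in the same normal libraries, so their counts of positive values there are not separate results.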

How the data were processed

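Per the file headers, the authors counted reads over exons of mm10 genes, with strand taken into account, in featureCounts 1.5.3, and deposited the counts unnormalized. Trimmomatic, HISAT2 and Subread are named in the submitters' processing notes. The header names no option for fragments or multi-mapping reads, so each read end was counted and reads in near-identical copies could be lost. RefSeq symbols were found for 25275 of 27179 gene numbers and GENCODE symbols for 18 more. The members and gene lists were chosen with earlier results of these data known. The 14 libraries with over 1000 counts were fitted together in edgeR 4.0.16 (R 4.3.3) with TMM scaling, filterByExpr, a coefficient per group, the quasi-likelihood test and Benjamini-Hochberg adjustment over 13883 genes, called under 0.05. The SE is the absolute log2 fold change over the square root of F. CPM and RPKM use TMM-scaled library sizes and the deposited gene length. Ratios were tested by exact permutation and correlations with 100000 resamples (scipy 1.17.1). Counts were also simulated for tumor over normal in Lrig1-low cells, with 100 genes changed 2-fold and 100 changed 4-fold among 13580 genes. The changed genes all had a mean of at least 10 CPM. Of the 2-fold changes 4% were recovered, and of the 4-fold changes 71%. Kcnq1ot1 and Snhg12, with medians of 1.283 and 7.355 CPM, lie below that level, so these shares do not cover them. DESeq2 1.42.0, limma 3.58.1, other scalings and filters, a block and left-out libraries were alternatives. Named list members are those called, or otherwise the highest in level; genes of like pattern are the 5 with the highest r per member, leaving out predicted genes, and 1 of those of Malat1 is not reported here.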

Additional observations from a re-analysis of the deposited data

Results flagged for a closer look

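Of 16 sets of 4 normal libraries checked (6 members and 2 ratios in each normal group), 2 held a library far from the other 3, where chance flags about 1 in 20. Gas5 in S09, labelled normal Lrig1-low, was at 228.0 CPM, against 70.6 to 82.3 CPM in the others of its label. Snhg12 in the same library was at 13.8 CPM, against 4.21 to 4.89 CPM. S09 is 1 of the 4 libraries whose Lrig1 level went against the label within a pair of neighbouring numbers.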

How the results depend on the processing

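No pairing by animal was possible because the labels give each library a number of its own and name no animal. The block used here, runs of neighbouring numbers, is not explained by the labels. S01 to S04, S05 to S08 and S09 to S12 each hold 1 library of each group, in the same order. Whether such a run shares an animal or a day is not given, so libraries of a run may not be independent. The cause of the changes below was not tested, and depth limits Kcnq1ot1 most, with 4 to 135 reads per library. The count of members called was 1 with DESeq2 for tumor over normal in Lrig1-high and in Lrig1-low cells, 1 with limma-voom in Lrig1-low cells and 4 in normal epithelium, and 0 with the block for the mean of both fractions. Leaving out 1 library each gave 0 to 1 members called for tumor over normal in Lrig1-high cells and for the mean of both fractions. Besides the counts given above, edgeR called 43 genes higher and 3 lower for tumor over normal in Lrig1-low cells, DESeq2 545 and 161, limma-voom 1060 and 329, library totals 149 and 0, and the block 90 and 5. For the mean of both fractions DESeq2 called 750 and 310, limma-voom 498 and 50, the block 143 and 22. Library totals moved the median log2 fold change of all genes to 0.24 for tumor over normal in Lrig1-low cells, -0.24 for Lrig1-high over Lrig1-low in tumors and -0.32 for the interaction, and no filter moved the last to -0.24.

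No result that changed sign was called in edgeR. With limma-voom, tumor over normal was -1.01 for Gas5, -0.13 for Snhg1 and -0.44 for Snhg12 in Lrig1-high cells and 0.096 for Neat1 in Lrig1-low cells. As the mean of both fractions it was 0.14 for Neat1, -0.38 for Gas5 and -0.092 for Snhg12. Lrig1-high over Lrig1-low was -0.09 for Gas5 in tumors and 0.15 for Kcnq1ot1 in normal epithelium, and the interaction of Kcnq1ot1 was -1.46. With library totals, tumor over normal in Lrig1-high cells was -0.022 for Neat1 and -0.003 for Gas5, Lrig1-high over Lrig1-low in tumors was -0.085 for Snhg1 and -0.17 for Snhg12, and the interaction of Kcnq1ot1 was -0.17. With the block, tumor over normal in Lrig1-high cells was -0.27 for Gas5 and -0.046 for Snhg12, and the interaction was -0.31. Without S07, S08, S09 and S10, tumor over normal was 0.18 for Neat1 in Lrig1-low cells and 0.26 as the mean of both fractions, Kcnq1ot1 was 0.13 for Lrig1-high over Lrig1-low in normal epithelium, and its interaction was -0.48. The log2 ratio of Neat1 to Malat1 then differed by 0.031 for tumor over normal in Lrig1-high cells and by -0.082 for Lrig1-high over Lrig1-low in tumors. That of Snhg1 to Gas5 differed by -0.24 for tumor over normal in Lrig1-low cells and by -0.096 for Lrig1-high over Lrig1-low in tumors.

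Leaving out 1 library each changed the sign of these log2 fold changes. Tumor over normal in Lrig1-high cells ran from -0.23 to 0.6 for Neat1, from -1.14 to 0.80 for Gas5, from -0.13 to 0.65 for Snhg1 and from -0.35 to 0.54 for Snhg12. In Lrig1-low cells it ran from -0.024 to 0.94 for Malat1, from -0.70 to 0.18 for Neat1, from -0.074 to 0.72 for Gas5, from -0.064 to 0.76 for Snhg1 and from -0.19 to 0.91 for Snhg12. The mean of both fractions ran from -0.34 to 0.18 for Neat1, from -0.50 to 0.51 for Gas5 and from -0.023 to 0.56 for Snhg12. Lrig1-high over Lrig1-low in tumors ran from -0.90 to 0.049 for Malat1, from -0.82 to 0.046 for Neat1, from -0.55 to 1.33 for Gas5, from -0.11 to 0.82 for Snhg1, from -0.33 to 0.74 for Snhg12 and from -1.36 to 0.079 for Kcnq1ot1. In normal epithelium it ran from -0.46 to 0.025 for Malat1 and from -0.92 to 0.029 for Kcnq1ot1, whose interaction ran from -0.74 to 0.70. The difference in the log2 ratio of Neat1 to Malat1 ran from -0.36 to 0.17 for tumor over normal in Lrig1-high cells and from -0.006 to 0.27 for Lrig1-high over Lrig1-low in tumors. That of Snhg1 to Gas5 ran from -0.091 to 0.28 for tumor over normal in Lrig1-low cells and from -0.29 to 0.57 for Lrig1-high over Lrig1-low in tumors. Without S12 the r of Gas5 and Kcnq1ot1 was -0.10, and that of Malat1 and Snhg1 became called (-0.68, permutation p adjusted 0.0279).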
